A study of Mus musculus with 3 samples.

Results

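The 7 genes examined were as follows: Gata3, which encodes the transcription factor that directs naive helper T cells to the Th2 fate, the cytokine genes Il4, Il13, Il5 and Il3, the transcription factor gene Nfil3 and the peptide precursor gene Penk. They were chosen by name, as Gata3 with cytokine and effector genes associated with Th2 cells, with earlier results of these data known. All 7 had exactly 1 probe set whose annotation gave that single symbol, out of 19935 genes so represented. The values came from 3 arrays of RNA from wild type C57BL/6 naive CD4+ T cells, taken at 8 weeks of age and kept in medium with vehicle, in IL-21, or in IL-6 plus TGFb1. Each culture was measured on 1 array, so the differences below carry neither a replicate error nor a test, and every one compares 2 arrays. The labels call the treatment an activation by cytokine. They give no dose, no time in culture, no stimulus of the T cell receptor, and do not say whether cells of several mice were pooled.

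Th2 cells are the helper T cells of immunity to worms and of allergy. IL-4 acts through the IL-4 receptor and the transcription factor STAT6 to raise Gata3, and GATA3 in turn acts on the linked genes for IL-4, IL-13 and IL-5, which drive IgE production, mucus and airway responses, and eosinophils. IL-6 together with TGF-beta is the pair commonly used to turn naive cells into Th17 cells, and TGF-beta is known to restrain Gata3, while IL-21 signals mainly through STAT3 and is used by follicular helper and Th17 cells.

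Gata3 was the member furthest apart between the cultures. It was brightest with IL-21, intermediate with medium and lowest with IL-6 plus TGFb1, and the treated cultures were 5.40-fold apart. Il4 followed the same order by smaller folds, and was only 1.30-fold below medium with IL-6 plus TGFb1. Il13 and Il3 did too, but Il13 differed little between cultures and Il3 was dim in medium and with IL-6 plus TGFb1. Penk was low with IL-6 plus TGFb1 alone, Nfil3 was above medium in both treated cultures, and Il5 was dim on every array.

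The values are probe set intensities on a linear scale, with array medians of 191 for medium, 182 for IL-21 and 188 for IL-6 plus TGFb1. Brightness depends on the probes as well as on the RNA, so a gene was compared only with itself across arrays. Differences are log2(intensity + 1) of one array minus another, where 1 stands for 2-fold. A gene was compared if its brightest array reached 187, the median of all values, which 11003 genes did. Of the 7 members 6 did, and Il5 did not. Gata3, Il13, Nfil3 and Penk were at or above 187 on 3 arrays and Il4 on 2. Il3 passed on the IL-21 array alone, so that its selection favours a higher value there. As a scale for error within arrays, 95% of the 474 genes with 2 bright probe sets gave differences from medium with IL-21 that lay within 0.41 of each other. That bound was 0.37 for IL-6 plus TGFb1 against medium and 0.35 between the treated cultures. It holds no spread between cultures, which was not measured.

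The cells were checked against defining markers. All 8 measured T cell markers, Cd3e and Cd4 among them, were at or above 187 on every array, and their summed intensity ran from 34992 to 38159. None of 6 myeloid markers and none of 10 markers of mast cells, basophils and eosinophils, which are other sources of IL-4 and IL-13, reached 187 on any array. The summed intensity of those 10 was 959 in medium, 909 in IL-21 and 950 in IL-6 plus TGFb1, with the lowest of them at 39.6. Of 5 B cell markers Cd79b alone reached 187 (365, 371 and 380.5). Of 5 NK and NKT cell markers Zbtb16 alone did, and their sum was 446 in medium, 469 in IL-21 and 553 in IL-6 plus TGFb1. That rise lay in Klrd1, which was dim at 66.0, 98.1 and 172.8 in the same order, while the others differed little. Cd8b1 was at 810.4, 731 and 616 in the same order, while Cd8a, the other CD8 chain, was at or below 163. The part of these last shifts in the results was not tested. In bulk RNA, fewer cells of a type and less RNA per cell cannot be told apart.

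**Figure D1:**
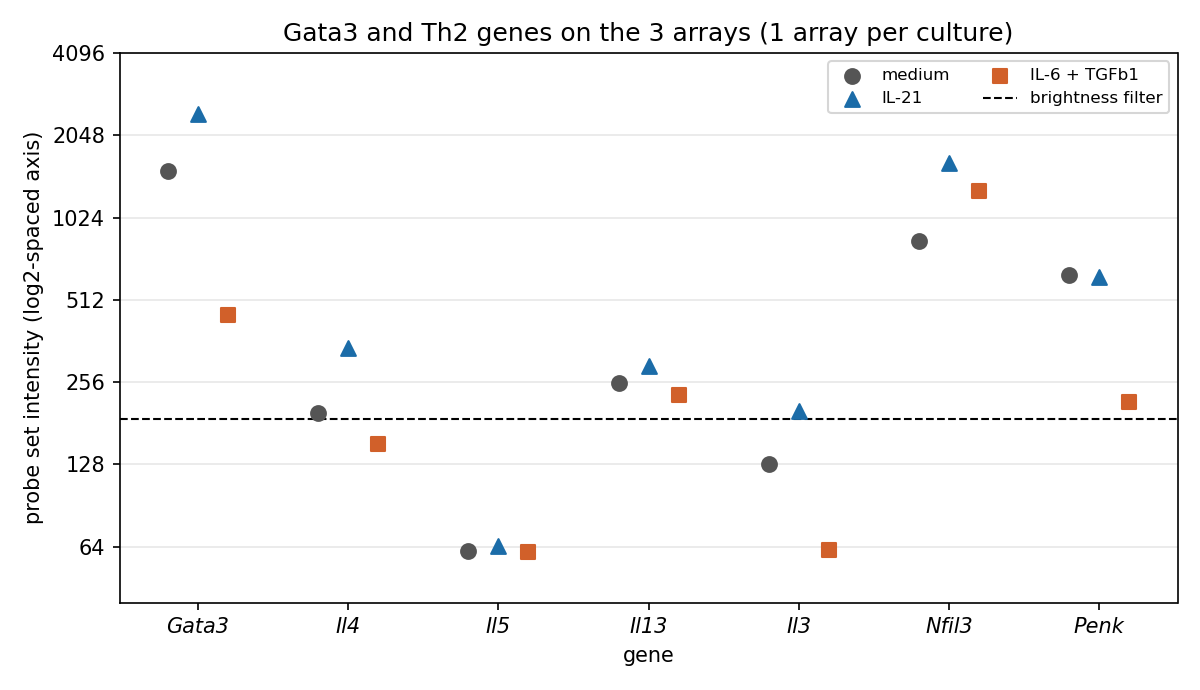
Probe set intensity of each member gene (vertical axis, log2-spaced) on the medium (circle), IL-21 (triangle) and IL-6 + TGFb1 (square) arrays, 1 array per culture, with the brightness filter of 187 as a dashed line. Gata3 is at 2451 with IL-21 and at 453 with IL-6 plus TGFb1, while the 3 points of Il5 lie between 61.2 and 64.7. Heights of different genes are not comparable.

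Gata3 is a zinc finger factor needed both for T cell development and for Th2 cells, and it stayed readily measurable in all 3 cultures. Its intensity was 1513 in medium, 2451 in IL-21 and 453 in IL-6 plus TGFb1. These values were at the 85.4th, 90.7th and 66.0th percentile of all probe sets on their arrays. With IL-21 the difference from medium was 0.70, or 1.62-fold, above that of 98.6% of the compared genes. With IL-6 plus TGFb1 Gata3 was 3.34-fold lower than with medium (-1.74), and only 13 of the 11003 compared genes had a lower difference. Between the treated cultures the difference was 2.43, a value that 2 other compared genes exceeded. Gata3 thus lay on opposite sides of medium in the 2 treated cultures, by more than the gap between probe sets of 1 gene in each case.

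Nfil3 encodes a basic leucine zipper repressor also called E4BP4, which is induced by cytokines in many lymphocytes and regulates cytokine genes in Th2 cells. Its intensity was 843 in medium, 1616 in IL-21 and 1283 in IL-6 plus TGFb1. Both treated cultures were above medium, by 0.94 (1.92-fold) and 0.61 (1.52-fold). This was the highest member difference with IL-21, the 68th highest of the compared genes, and it was the only member above medium with IL-6 plus TGFb1. Nfil3 reached 1.004 with IL-21, and so 2-fold, when arrays were centred on their medians. Between the treated cultures it differed by 0.33, which is within the probe set gap of 0.35.

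Il4 encodes the cytokine that both induces Th2 cells and is made by them. Its intensity was 198 in medium, 342 in IL-21 and 152 in IL-6 plus TGFb1, so that the array of IL-6 plus TGFb1 was below the brightness filter. Against medium Il4 was 1.73-fold higher with IL-21 (0.79), the 106th highest difference of the compared genes. With IL-6 plus TGFb1 it was 1.30-fold lower (-0.38), about the size of the probe set gap of 0.37. The treated cultures were 2.24-fold apart (1.17), the 23rd highest difference. Even at its brightest, the Il4 probe set was at the 61.5th percentile of its array.

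Il13 encodes the sister cytokine of IL-4, which acts on epithelium and smooth muscle. Its intensity was 255 in medium, 294 in IL-21 and 231 in IL-6 plus TGFb1. The order of the cultures was that of Il4, but the differences from medium, 0.21 and -0.14, were inside the gap between probe sets of 1 gene. The difference between the treated cultures was 0.35 (1.27-fold), at that gap. The cultures were therefore not clearly separated in Il13.

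Il5 encodes the growth and survival factor of eosinophils. Its intensity was 61.7 in medium, 64.7 in IL-21 and 61.2 in IL-6 plus TGFb1, below the 20th percentile of each array, where a difference in RNA may not be visible. It was not among the compared genes, and its log2 differences were 0.07, -0.01 and 0.08.

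Il3 encodes a growth factor for basophils, mast cells and early blood cells, made by activated T cells. Its intensity was 129 in medium, 200.2 in IL-21 and 62.2 in IL-6 plus TGFb1. The difference from medium was 0.63 with IL-21 (1.55-fold) and -1.04 with IL-6 plus TGFb1. The latter came to -0.89 both with log2(intensity + 16) and when dim values were raised to the 20th percentile, and so was within 2-fold. Between the treated cultures the difference was 1.67, and 1.52 when dim values were raised. As the value with IL-6 plus TGFb1 was below 69.0, the 20th percentile of all values, and Il3 was compared only for its value with IL-21, neither its fold nor its rank was taken as measured.

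Penk encodes proenkephalin, the precursor of the opioid peptides called enkephalins, which activated T cells and Th2 cells are known to express. Its intensity was 632 in medium, 619 in IL-21 and 217 in IL-6 plus TGFb1. The difference of IL-21 from medium was -0.03, and 0.04 when arrays were centred on their medians, so that its sign was not settled. With IL-6 plus TGFb1 Penk was 2.91-fold lower than with medium (-1.54), where 17 compared genes had a lower difference. The treated cultures were 2.85-fold apart (1.51). Penk therefore shared with Gata3 the low value with IL-6 plus TGFb1 and not the higher value with IL-21. Of its receptor genes, Oprm1 and Oprk1 were below 187 on every array, and Oprd1, the gene of the delta opioid receptor, was at 313 in medium, 237 in IL-21 and 281 in IL-6 plus TGFb1.

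**Figure D2:**
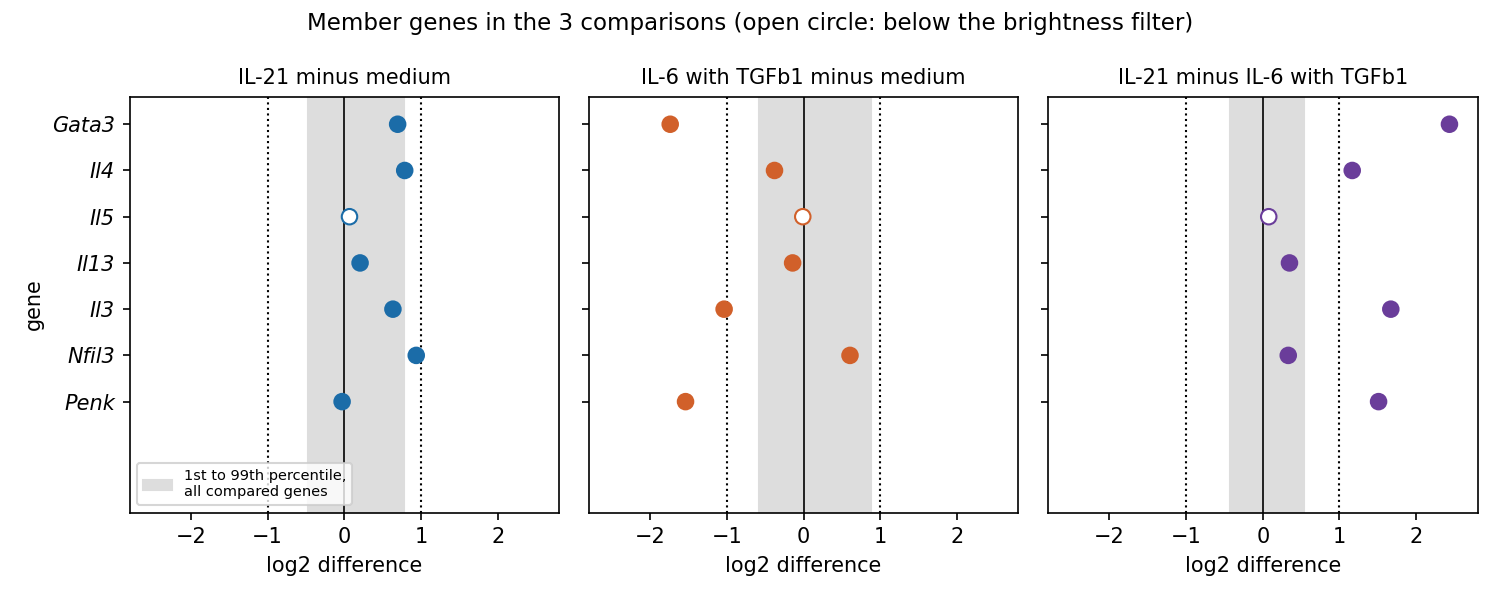
Log2 difference of each member gene (horizontal axis) in the 3 comparisons, with 2-fold as dotted lines and the 1st to 99th percentile of all 11003 compared genes in grey. Gata3, Il3 and Penk lie left of the 2-fold line with IL-6 plus TGFb1, and with Il4 they lie right of it between the treated cultures, while the open circle of Il5 marks a gene below the filter.

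Set against all compared genes, the members at least 2-fold apart were as follows. With IL-21 against medium, 0 of the 6 compared members were at least 2-fold higher, a level that 0.482% of the compared genes reached, and 0 were 2-fold lower (0.109%). At 1.5-fold there were 4 members higher, namely Gata3, Il4, Il3 and Nfil3, where 2.04% of all compared genes were, and 0 lower (0.5%). With IL-6 plus TGFb1 against medium, 3 members were at least 2-fold lower (Gata3, Penk and Il3; 0.364% of compared genes) and 0 were 2-fold higher (0.673%). At 1.5-fold the same 3 were lower (1.0%) and Nfil3 was higher (2.61%). Between the treated cultures 4 members were at least 2-fold higher with IL-21, namely Gata3, Il3, Penk and Il4, where 0.273% of compared genes were, and 0 were lower (0.191%). At 1.5-fold the same 4, Il3 among them, were higher (0.927%) and 0 lower (0.527%). Without Il3, which entered only through its IL-21 array, 5 members were compared. Of these, 3 were at least 2-fold higher with IL-21 than in the other treated culture, and the same 3 at 1.5-fold. With IL-6 plus TGFb1, 2 of them were at least 2-fold lower than with medium. Il4, Il3 and Il13, of which Il13 was within 2-fold, belong to the 3668 compared genes whose brightest array was below 487, and of these 0.136% were at least 2-fold higher with IL-21 than in the other treated culture. The median difference of all compared genes was 0.04 with IL-21, 0.02 with IL-6 plus TGFb1 and 0.00 between the treated cultures. The comparisons with medium share the medium array and so are not independent of each other.

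Of the 6 compared members 4, namely Gata3, Il4, Il13 and Il3, had the order IL-21, medium, IL-6 plus TGFb1 from bright to dim, which 10.4% of compared genes had. For Il13 that order rests on differences from medium within probe set error, and Il3 was compared only through its IL-21 array.

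Gata3 lies on mouse chromosome 2 and Nfil3 on chromosome 13, whereas Il4, Il13, Il5 and Il3 lie in 1 stretch of chromosome 11. In the RefSeq gene order (assembly GRCm38.p6) the stretch from Kif3a to Acsl6 holds 14 protein-coding genes, in the order Kif3a, Il4, Il13, Rad50, Il5, Irf1, Slc22a5, Slc22a21, Slc22a4, Pdlim4, P4ha2, Csf2, Il3 and Acsl6. Among the neighbours that were compared, 7 genes, differences from medium with IL-21 lay between -0.13 and 0.48 and none was past 1.5-fold. Of all compared genes 2.04% were past it on the higher and 0.5% on the lower side. Rad50, the DNA repair gene whose introns hold the locus control region of the Th2 cytokines, was at 1963 in medium, 2017 in IL-21 and 2072 in IL-6 plus TGFb1. Kif3a, a kinesin motor gene next to Il4, was at 221, 309 and 286 in that order, above medium in both treated cultures (0.48 and 0.37). Irf1, an interferon-induced factor gene beyond Il5, was at 2900.2, 2655 and 2515 (-0.13 and -0.21; 0.06 and -0.00 by its dimmer probe set). Csf2, which encodes GM-CSF and lies beside Il3, was dim at 85.9, 90.5 and 89.5. Acsl6, a fatty acid activating enzyme gene on the other side of Il3, was the only compared neighbour within this stretch past 1.5-fold. It was at 316 in medium, 324 in IL-21 and 199.6 in IL-6 plus TGFb1 (-0.66 against medium and 0.70 between the treated cultures). Of all compared genes 1.0% were at least 1.5-fold lower with IL-6 plus TGFb1 than with medium. Between the treated cultures 0.927% were at least 1.5-fold higher with IL-21. Septin8, a cytoskeletal gene on the outer side of Kif3a, was at 322, 406 and 486 (0.33 and 0.59 above medium). The gap between cultures seen in Il4 was thus not seen in Rad50, and Acsl6, beside Il3, was also lowest with IL-6 plus TGFb1. Csf2 was too dim to compare.

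**Figure D3:**
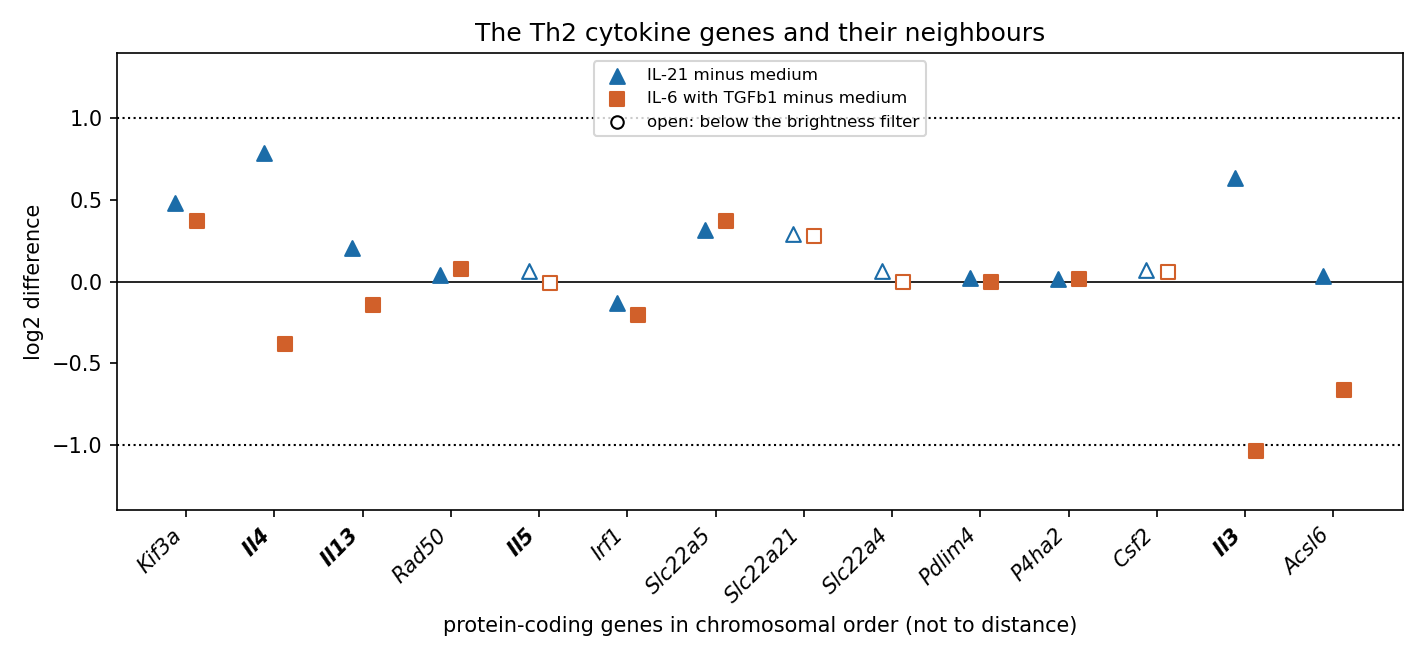
Log2 difference from medium (vertical axis) of the 14 protein-coding genes from Kif3a to Acsl6 in chromosomal order, with IL-21 (triangle) and with IL-6 plus TGFb1 (square); open symbols are genes below the filter and bold names are members. Il4 and Il3 stand above 0 with IL-21 and below 0 with IL-6 plus TGFb1, while Rad50, Pdlim4 and P4ha2 lie near 0 in both.

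As GATA3 is known to act on these cytokine genes, the bases upstream of their start sites are shown to let the letters be read beside the values. They come from RefSeq (GRCm38.p6), which held a promoter for 6 of the 7 members. Each run is the 250 bases before the gene's outermost annotated start, 5′ to 3′ on the gene's strand: chr11:53618666-53618915 (minus strand) for Il4, chr11:53634703-53634952 (minus strand) for Il13, chr11:53720544-53720793 (plus strand) for Il5 and chr11:54267280-54267529 (minus strand) for Il3. Capitals mark matches to AGATAA or AGATAG or TGATAA or TGATAG, the common forms of the GATA site, on either strand.
Il4: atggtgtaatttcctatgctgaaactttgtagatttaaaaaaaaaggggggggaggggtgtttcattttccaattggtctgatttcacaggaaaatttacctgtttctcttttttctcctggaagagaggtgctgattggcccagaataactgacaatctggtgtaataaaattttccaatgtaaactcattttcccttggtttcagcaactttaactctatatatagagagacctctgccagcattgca
Il13: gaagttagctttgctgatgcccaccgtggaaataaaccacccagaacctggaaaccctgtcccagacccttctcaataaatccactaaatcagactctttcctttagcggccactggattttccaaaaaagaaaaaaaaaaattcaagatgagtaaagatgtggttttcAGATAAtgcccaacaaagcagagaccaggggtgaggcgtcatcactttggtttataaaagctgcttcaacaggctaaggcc
Il5: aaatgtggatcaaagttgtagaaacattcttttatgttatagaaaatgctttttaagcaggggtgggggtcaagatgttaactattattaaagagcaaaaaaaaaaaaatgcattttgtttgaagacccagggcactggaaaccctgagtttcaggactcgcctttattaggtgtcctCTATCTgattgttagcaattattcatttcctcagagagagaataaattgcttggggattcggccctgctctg
Il3: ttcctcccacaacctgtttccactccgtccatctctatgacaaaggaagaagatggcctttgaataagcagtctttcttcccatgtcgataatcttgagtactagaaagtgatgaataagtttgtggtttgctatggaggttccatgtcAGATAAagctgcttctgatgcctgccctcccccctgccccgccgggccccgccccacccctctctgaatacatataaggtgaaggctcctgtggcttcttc

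Il13 held AGATAA from 81 to 76 bases before its start and Il3 held AGATAA from 101 to 96 bases before. Il5 held AGATAG on the opposite strand, read as CTATCT, from 72 to 67 bases before. The window of Il4 shown held none of the 4 words, but the window before a further annotated start of Il4 held TGATAG from 80 to 75 bases before that start. The windows listed for Gata3 and Nfil3, which do not precede the outermost start of the gene, held none. Of all 32851 promoter windows of this length, 26.5% held at least 1. Of the genes with 1 match in the window shown, Il13 was not clearly separated between cultures and Il5 was dim on all arrays. The fold of Il3 was not taken as measured, so these matches were not related to differences between cultures. The NFIL3 site TTACGTAA, searched on both strands, was in none of the members' windows and in 0.113% of all windows. These are matches of letters and not measured binding sites.

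Upstream of Gata3 and beside it, the list of factors and signalling genes of the Th2 program had 20 compared genes of 24. With IL-21 18 of them were above medium, 0 of them at least 2-fold (0.482% of all compared genes), with a list median of 0.20. Over all compared genes 59.8% were above medium. Stat6, the main signal transducer of IL-4, was at 3173 in medium, 3265 in IL-21 and 2956 in IL-6 plus TGFb1, within 0.14 of each other on the log2 scale. Satb1, which encodes a chromatin organizer of the Th2 cytokine locus, was at 5422 with medium and at 9479 and 9305 in the treated cultures (0.81 and 0.78). Rbpj, the DNA-binding partner of Notch that can act on Gata3, was 0.67 above medium with IL-21 and 1.30 above with IL-6 plus TGFb1, and its other probe set was dim, at 93.5 or less on every array. Nfatc2, a calcium-regulated factor of cytokine genes, was 0.51 and 0.67 above. Maf, which encodes an activator of Il4 also used by Th17 cells, was at 273 in medium, 296 in IL-21 and 1865 in IL-6 plus TGFb1. Maf was therefore 6.81-fold above medium in the culture where Il4 and Gata3 were lowest. With IL-6 plus TGFb1 the list had 2 genes at least 2-fold higher, Maf and Rbpj (0.673% of all compared genes), 0 lower (0.364%) and a median of 0.23.

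Of 17 symbols listed as opposing Gata3 or the Th2 program 15 were compared, with medians of 0.07 for each treated culture against medium. Among these symbols Mina and Riox2 name the same gene, measured as Riox2. Tbx21, which encodes the Th1 factor T-bet, was at 2730.3 in medium, 2842 in IL-21 and 1967 in IL-6 plus TGFb1. It was thus lowest in the same culture as Gata3 (-0.47). Eomes, a related T-box factor, was at 1180.3, 332 and 131 in that order, lower in both treated cultures. Socs3, a feedback inhibitor of STAT3-activating receptors, was at 529.7, 1516 and 1517, and its dimmer probe set gave smaller differences from medium (0.86 and 0.56 against 1.52 and 1.52). Bcl6, the follicular helper repressor, was at 188, 322 and 294. The list was made by name, and whether Socs3 or any other gene in it opposed the Th2 program in these cells was not tested. Past 2-fold in this list were Socs3 on the higher and Eomes on the lower side in each treated culture. Of all compared genes 0.482% were past it on the higher and 0.109% on the lower side with IL-21. With IL-6 plus TGFb1 these shares were 0.673% and 0.364%.

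Among the receptors of these cytokines and of Th2 cells, 22 symbols were listed, of which Gpr44 and Ptgdr2 name the same gene. Of these, 9 were compared, 0 of them at least 2-fold apart in any comparison. This is near the share of all compared genes. Between 0.109% and 0.673% of those were past 2-fold in any one direction and comparison. Il4ra, the ligand-binding chain of the IL-4 receptor, was at 5416 in medium, 6832 in IL-21 and 5356 in IL-6 plus TGFb1. Its difference with IL-21 was 0.34, within the probe set gap. Il7r, the IL-7 receptor chain, was at 989, 1481 and 1827. The chains Il5ra, Il13ra1 and Il13ra2 were below 187 on every array. Il2ra, the IL-2 receptor alpha chain that naive cells gain on activation, was bright on all arrays, at 10172, 10217 and 9953. Il2ra, Il5ra, Il13ra1, Il13ra2 and the opioid receptor genes were named after their values were seen.

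Other Th2-associated cytokine and effector genes did not follow one order. Of 16 listed genes 9 were compared, with medians of 0.35 with IL-21, 0.19 with IL-6 plus TGFb1 and 0.16 between the treated cultures. Ecm1, which encodes an extracellular protein that helps Th2 cells leave lymph nodes, was at 408 in medium, 1292 in IL-21 and 745 in IL-6 plus TGFb1. Epas1, which encodes the hypoxia-inducible factor HIF-2 alpha, was at 233, 494 and 198. Epas1 resembled Il4 in being above medium with IL-21 (1.08). Both were also below medium with IL-6 plus TGFb1, but Epas1 (-0.24) was within the probe set gap of 0.37 and Il4 (-0.38) about at it. Il24, a cytokine gene of the IL-10 family, was at 116, 243 and 155. It passed the brightness filter on the IL-21 array alone, so that its selection favours a higher value there. Il9, a cytokine gene of Th9 and Th2 cells, went the other way, at 221 in medium, 229 in IL-21 and 524 in IL-6 plus TGFb1. Il9 (-1.19) and Maf (-2.65) were the only compared genes in the lists described here that were 2-fold or more dimmer in IL-21 than in IL-6 plus TGFb1. Of all compared genes 0.191% were.

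**Figure D4:**
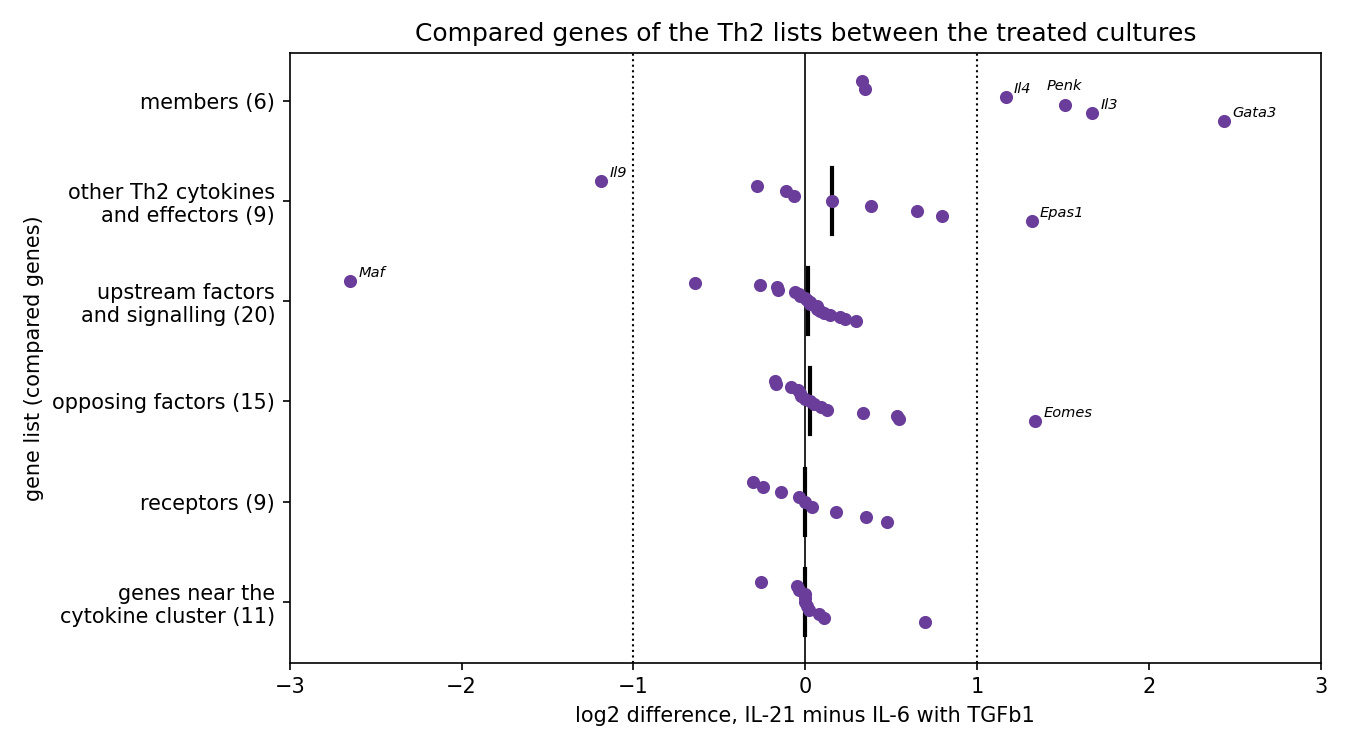
Log2 difference between the treated cultures (horizontal axis, IL-21 minus IL-6 plus TGFb1) of every compared gene in 6 lists, 1 point per gene, with its list size in brackets, list medians as black bars except for the members, and 2-fold as dotted lines. Gata3, Il3, Penk and Il4 lie right of 1 with Epas1 and Eomes, whereas Il9 and Maf lie left of -1.

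The genes whose pattern was most like that of a member were found by the distance between the pairs of differences from medium, over 3 arrays. Nearest to Gata3 were Akr1c18, a steroid-metabolizing enzyme gene (distance 0.35), Pros1, which encodes protein S (0.62), Itih5 (0.64) and Tnfsf8, which encodes the CD30 ligand (0.81). Akr1c18 was at 703 in medium, 1364 in IL-21 and 248 in IL-6 plus TGFb1. For Gata3, 0 genes lay within a distance of 0.25. Nearest to Il4 were the adenylate kinase gene Ak4 (0.20), Tnfsf10, which encodes the death ligand TRAIL (0.20), P2ry1 (0.26) and Epas1 (0.33), and 2 genes were within 0.25. Nearest to Nfil3 were the chemokine receptor gene Cxcr3 (0.03), the mitophagy gene Bnip3 (0.05), Gstt3 and Ddt (0.06 each), and 45 genes were within 0.25. These counts depend on how far a member's differences lay from those of most genes, so they are no result apart from those differences. The distance of 0.25 was also below the probe set gaps of 0.41 with IL-21 and 0.37 with IL-6 plus TGFb1.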

How the data were processed

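RNA of 3 cultures was measured on 1 array each. Per the labels' protocols it was fragmented and biotinylated by a service company with an Affymetrix whole-transcript kit. The deposited values are probe set intensities, read as linear from the values, and the authors' summarization and normalization are not given in the sources used here. Per the submitters' processing notes the build was mm8; no mm8 coordinates were used. Between 16.4% and 21.6% of the 28815 probe sets were exactly equal on a pair of arrays. The number of arrays limits the precision.

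Names came from the platform annotation: 21780 probe sets had 1 symbol, 1605 several and 5430 none. Only the first were used, with the brightest probe set per gene. Log2 differences of the intensities used a pseudocount of 1, with no further normalization. With 1 array per group no test was possible, so genes past 2-fold or 1.5-fold were counted. Named genes beside the members were, in each list, up to 4 compared genes past 1.5-fold with the largest difference, a fixed set (Il4ra, Stat6, Maf, Tbx21, Rad50, Kif3a, Irf1, Csf2), and the 4 genes nearest in pattern to Gata3, Il4 and Nfil3, leaving out provisional symbols, small RNAs, and receptors of smell. The members and the 14 other lists were chosen with earlier results of these data known. The calculations, in Python 3.11.15 with pandas 2.3.3 and numpy 2.4.6, were tested on simulated data. The alternatives were another pseudocount, raised dim values, quantile normalization, centring on the array median, the mean of a gene's probe sets, probe sets of several symbols, no filter and a stricter filter.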

Additional observations from a re-analysis of the deposited data

How the results depend on the processing

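The members' differences were recomputed under 6 other settings, 126 values in all, of which 123 kept their side of 2-fold and moved by less than the probe set gap. Of the other 3, Il3 with IL-6 plus TGFb1 against medium was -0.89 with log2(intensity + 16) and -0.89 with dim values raised, and Nfil3 with IL-21 against medium was 1.004 with arrays centred on their medians, which made 1 member at least 2-fold higher there instead of 0. The sign differed in 2 values, both near 0 and both with centred arrays: Penk with IL-21 against medium (0.04) and Il5 with IL-6 plus TGFb1 against medium (0.01). Gata3 ranged from 0.64 to 0.76 with IL-21, from -1.80 to -1.71 with IL-6 plus TGFb1 and from 2.40 to 2.48 between the treated cultures. With the brightness filter at the 75th percentile of all values (785), 2 members were compared, Gata3 and Nfil3, so that 1 was at least 2-fold lower with IL-6 plus TGFb1 than with medium and 1 at least 2-fold higher with IL-21 than with IL-6 plus TGFb1. Each member has 1 probe set, so the mean over probe sets changed nothing. No paired analysis was possible because each group has 1 array. Il5, and Il3 with IL-6 plus TGFb1, were too dim to show how far their RNA differed.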

Other observations

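The relatives of the members, and clock genes listed with Nfil3, stayed within 1.5-fold across the cultures wherever they were compared. Most compared genes did so too, as between 0.5% and 2.61% were past 1.5-fold in any one direction and comparison. Of the other GATA factor genes, Gata1, Gata4 and Gata5 were compared, with intensities between 167 and 230.1 on all arrays and differences between -0.22 and 0.20 in every comparison, and Gata2 and Gata6 were below the brightness filter. None of these paralogs showed the wide spread of Gata3. All of them lay near or below the brightness filter, where a difference in RNA may not be visible. The comparison therefore cannot decide whether their RNA differed between the cultures. Among the basic leucine zipper and clock genes listed with Nfil3, 7 of 8 were compared. Their differences lay between -0.10 and 0.24 with IL-21, where Nfil3 was at 0.94. With IL-6 plus TGFb1 they lay between -0.25 and 0.37, where Nfil3 was at 0.61. Between the treated cultures they lay between -0.36 and 0.15, where Nfil3 was at 0.33. Dbp and Tef, activators that share the DNA site of NFIL3, had exactly equal values with medium and IL-21 (406 and 260.2). Of the other opioid precursors Pnoc, which encodes the precursor of nociceptin, was at 202 in medium, 169.7 in IL-21 and 195 in IL-6 plus TGFb1, and Pdyn and Pomc were below the filter. All these genes were named after their values were seen.

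Il10, whose product is an anti-inflammatory cytokine of many helper T cells, was below the filter on every array and so was not compared. Its intensity was 90.8 in medium, 155 in IL-21 and 146 in IL-6 plus TGFb1, with differences of 0.76 and 0.68 that are poorly measured at this brightness. Ccl1, a chemokine gene of Th2 cells, was likewise dim, at 182, 119 and 129 in that order.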
